A study of Mus musculus with 8 samples.

Results

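The 36 genes described here encode the enzymes of glycolysis, lactate formation, pyruvate entry into the mitochondrion and the pentose phosphate pathway, with the kinases that regulate those steps. Members were taken by name, from the array probes whose gene name, brought up to current symbols, was 1 of the 36. The list of names was made with earlier results of these data known. The brightest probe stood for each gene. All 36 had a probe, among 27324 named genes and unnamed targets on the array. Of the 16310 genes that could be tested, 34 were members. The other two, Pklr (liver and red cell pyruvate kinase) and Pdk4 (a pyruvate dehydrogenase kinase), were not well above background on any of the 8 arrays. Among the 34, 18 had several usable probes and 16 had 1.

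Glycolysis splits glucose into pyruvate, which lactate dehydrogenase turns into lactate or pyruvate dehydrogenase passes on to the citric acid cycle. The pentose phosphate pathway branches off at glucose 6-phosphate: its oxidative branch makes NADPH, and its non-oxidative branch exchanges sugars between ribose phosphates and glycolysis. Several steps have tissue forms, such as the muscle form of phosphoglycerate mutase (Pgam2) and of enolase (Eno3), and B-lineage transcription factors have been linked to limits on glucose use in B-cell progenitors.

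Expression was measured on one-colour arrays of c-Kit+ progenitors enriched from the fetal liver of Ebf1-/- mice (background strain C57Bl/6), which lack the B-lineage transcription factor EBF1. The cells were grown on OP9 stromal feeder cells with interleukin 7 at 5 ng/ml and with Flt3 ligand and stem cell factor at 10 ng/ml each. They received a pMys retrovirus that also encodes GFP: the vector alone (Empty, 2 arrays), wild-type EBF1 (EBF1wt, 3 arrays), or EBF1-H240A (3 arrays), which carries alanine in place of a histidine. GFP+ cells were sorted 36 h after transduction, and 0.2 ug of RNA was labelled with Cy3. All groups shared the Ebf1 deletion, the virus backbone, the feeder layer and the cytokines, and EBF1 came from a retroviral vector and not from its own locus. The labels do not give the age of the embryos. Nor do they tell if replicates came from different cultures or different animals; the p-values here reflect only how these arrays scatter, and that scatter may be technical.

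Values are log2 signals after every array was scaled to the same 75th percentile of intensity, which was 231.8 to 325.9 before scaling. The scanner software flagged 54.57% to 59.65% of an array's probes as well above background, and arrays of a group correlated at r = 0.9905 to 0.995 across probes. A gene is called higher or lower, risen or fallen, where 1 limma fit to the 8 arrays gave an adjusted p (Benjamini-Hochberg, 16310 genes) under 0.05. The probe of Ebf1 read 10.11 to 10.44 on all 8 arrays and was called in no comparison, so it did not check the vectors. The summed scaled intensity of 7 B-lineage markers was 1865 to 1995 with Empty, 52918 to 59297 with EBF1wt and 29138 to 33017 with EBF1-H240A, with Pax5 at background throughout. Much of the Empty sum is the Ebf1 probe, and the sums with EBF1 follow the brightest genes, so they do not give the change of each gene. Of 6 tested genes 5 rose in each comparison with Empty and 0 fell. Between the EBF1 forms 2 were lower with EBF1-H240A and 4 were not called. Other marker lists moved too: the sum over 7 erythroid genes was 8343 to 9294 on the Empty arrays, 1216 to 1352 with EBF1wt and 851 to 938 with EBF1-H240A, with Klf1 above background on no array. That sum follows the bright Hbb-bt, and the list did not move as one: of 4 tested genes Hbb-bt and Epor fell in both comparisons, while Alas2 rose, from 0.67 and 1.30 with Empty, not well above background, to between 6.54 and 8.01 on the other arrays. For 7 proliferation genes the sums were 26555 to 28175, 20378 to 21988 and 17046 to 18628, with 4 and 7 genes called lower and none higher. For 5 progenitor genes they were 34401 to 36201, 18487 to 19894 and 22044 to 22977. The fall of this sum follows Cd34: with EBF1wt 3 of the 5 genes fell while Flt3 rose, by 0.34. With EBF1-H240A 4 fell and 0 rose. Sums of the 8 myeloid genes ran from 111316 to 119332, from 144523 to 156044 and from 143567 to 161537, with Elane at background throughout. This sum follows Ly6c2: of 7 tested myeloid genes 3 rose with EBF1wt and 5 with EBF1-H240A, while Mpo (-2.95 and -1.49) and Itgam (-1.66 and -1.45) fell in both. The 10 stromal feeder genes gave 14215 to 14825, 16788 to 21517 and 13490 to 16788, sums that follow Thy1, which was not called, while 4 of the 10 genes rose with EBF1wt and 6 with EBF1-H240A, Pdgfrb by 1.54 and 1.95, and none fell. Hepatocyte genes gave 532 to 542, 169 to 199 and 65 to 69, and Alb, Afp, Apoa1, Ttr and Fgb were above background on no array. This sum follows Ahsg, 1 of 2 tested genes, which fell in both comparisons. The other, Hnf4a, was dim, was not called with EBF1wt and rose by 0.94 with EBF1-H240A. The part of these cell types in the differences below was not tested, and in RNA from bulk cells fewer cells of a type and less RNA per cell cannot be told apart.

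With EBF1wt, 14 of the 34 tested members were called against Empty, 4 higher and 10 lower. That is 41.2% of them, beside 38.4% of all genes called in this comparison, of which 17.2% of genes were higher and 21.3% lower. With EBF1-H240A, 17 of 34 were called, 7 higher and 10 lower, or 50% of members beside 44.6% of all genes (21.6% higher, 23% lower). These shares lie near the background of all genes, and read against it they are no result about the members. The median difference of the members was -0.04 with EBF1wt and 0.02 with EBF1-H240A, beside -0.04 and 0.00 over all genes. The split between directions depended on the source of the values. With the deposited log2 values 2 members were higher and 10 lower with EBF1wt, beside 12.6% and 15.5% of all genes, and 3 higher and 8 lower with EBF1-H240A, beside 15.4% and 18.9%. After another background correction (normexp) 2 were higher and 9 lower with EBF1wt, beside 12.5% and 14.4% of all genes, and 5 higher and 8 lower with EBF1-H240A, beside 16.4% and 16.5%. Most called differences were small. With EBF1wt 4 of the 34 members (11.8%) fell and 1 (2.94%) rose by at least 0.5 on the log2 scale, beside 9.88% and 11.4% of all genes. With EBF1-H240A 4 (11.8%) fell and 3 (8.82%) rose by that much, beside 12.2% and 14.3% of all genes. Both comparisons use the same Empty arrays, so the values are given side by side without a test of their likeness.

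**Figure D1:**
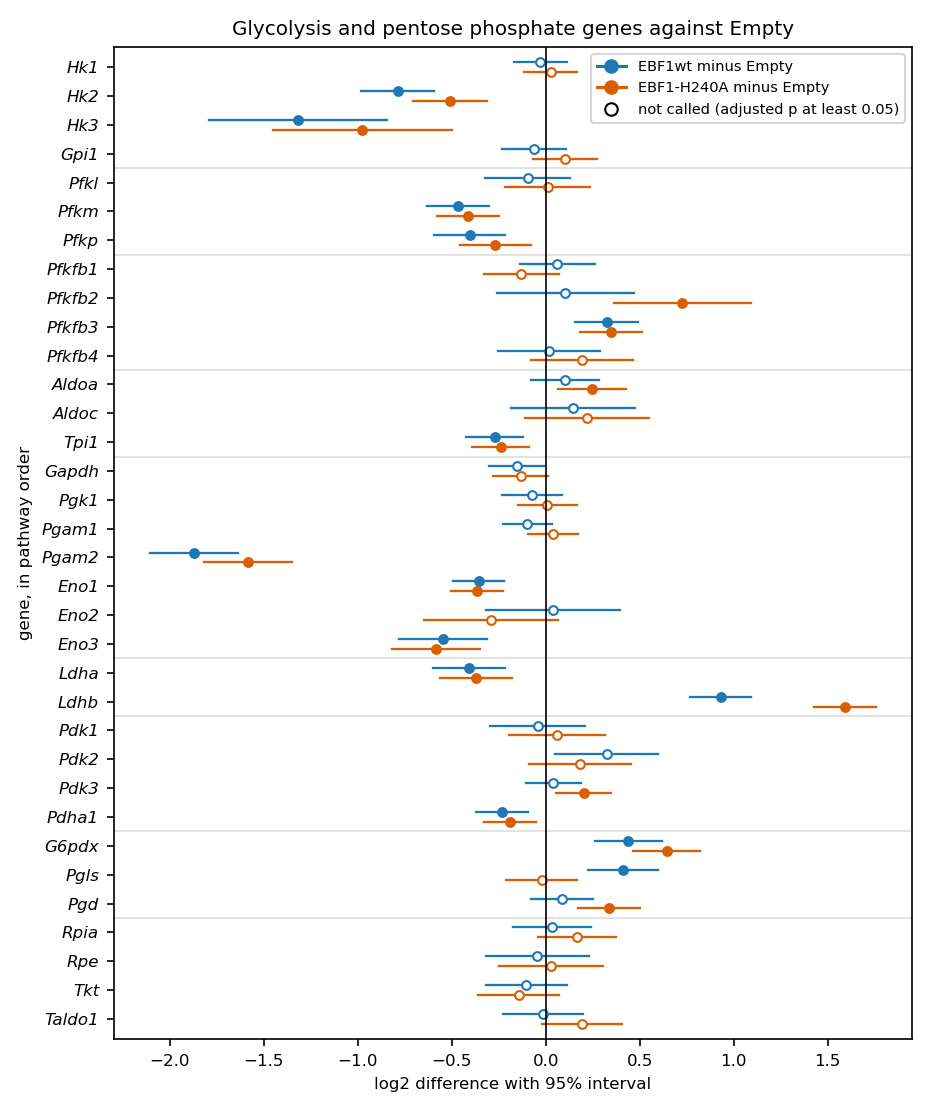
Log2 difference from Empty (x axis, line for the 95% interval) of the 34 tested members in pathway order, for EBF1wt (blue) and EBF1-H240A (orange), with filled points for adjusted p under 0.05. Pgam2 lies at -1.87 and -1.58 and Ldhb at 0.93 and 1.59, and most other members lie within 0.5 of 0.

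Hexokinases trap glucose as glucose 6-phosphate, and of the 3 measured, Hk2 and Hk3 fell while Hk1 stayed uncalled. Hk2, the inducible form, read 10.96 and 10.98 on the Empty arrays, 10.15, 10.28 and 10.12 on the EBF1wt arrays, and 10.56, 10.47 and 10.36 on the EBF1-H240A arrays. Every array with EBF1 was below both Empty arrays, and the EBF1-H240A arrays lay between the other groups. The fall was 0.79 with EBF1wt, a difference of -0.79 ± 0.08 (SE) or 1.73-fold (limma, adjusted p = 5.04e-04), and -0.51 ± 0.08 or 1.42-fold with EBF1-H240A (adjusted p = 2.63e-03). The Hk2 probe lies at chr6:82675056-82675115 in mm9, the build of the array annotation.

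Hk3, the hexokinase of myeloid cells, was dim: it read 3.91 and 4.18 with Empty, 2.66, 2.92 and 2.59 with EBF1wt, and on the EBF1-H240A arrays 2.90, 2.86 and 3.44, and 1 of the 3 EBF1wt arrays was not well above background. The groups with EBF1 lay below Empty and overlapped each other. The differences were -1.32 ± 0.20 (adjusted p = 2.51e-03) and -0.98 ± 0.20 (adjusted p = 7.18e-03). They shrank to -0.14 (adjusted p = 0.421) and -0.02 (adjusted p = 0.909) after normexp background correction, so neither call held there. With EBF1-H240A the Hk3 call was also lost with the deposited values, at -0.42 (adjusted p = 0.0829), and without Empty replicate 2. The myeloid markers Mpo and Itgam fell in both comparisons as well, others rose, and their part in the difference of Hk3 was not tested. Hk1 (-0.03 and 0.03) and Gpi1, glucose phosphate isomerase (-0.06 and 0.10), were not called. The other Gpi1 probe gave -0.33 and -0.16.

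EBF1 binds DNA as a dimer at an inverted repeat with CCC and GGG half-sites, so the letters CCCNNGGG were searched on both strands of RefSeq promoters (GRCm38.p6), taken as 250 bases before to 50 after a start. The letters stood in 7 of the 56 promoters of the 36 members (12.5%), beside 13.7% of all 32851 promoters. The longer form with T before and A after these letters, which contains the shorter, stood in none of the members' promoters and in 0.904% of all. The 250 bases before the start of Hk2 (chr6:82774455-82774704, minus strand) are shown, as the fallen hexokinase whose promoter holds the letters, with each match in capitals. A match is a description of the letters and no evidence of binding.
Hk2: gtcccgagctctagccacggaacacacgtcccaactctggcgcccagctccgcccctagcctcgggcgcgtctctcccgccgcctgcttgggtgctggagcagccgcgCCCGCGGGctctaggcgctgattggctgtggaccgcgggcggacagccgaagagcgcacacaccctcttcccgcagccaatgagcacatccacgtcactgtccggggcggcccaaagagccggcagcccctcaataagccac

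Phosphofructokinase commits sugar to glycolysis, and its muscle and platelet subunits fell while the liver subunit was not called. Pfkm read 10.56 and 10.42 with Empty, 10.03, 10.00 and 10.03 with EBF1wt, and on the EBF1-H240A arrays 10.04, 10.15 and 10.04, below both Empty arrays throughout. Its differences were -0.47 ± 0.07 (adjusted p = 2.34e-03) and -0.41 ± 0.07 (adjusted p = 3.14e-03), and Pfkp changed by -0.41 ± 0.08 and -0.27 ± 0.08 (adjusted p = 7.07e-03 and 0.0300), the second lost in 7 of 18 alternatives. The other Pfkp probes gave -0.69 and -0.55, and -0.23 and -0.22. Pfkl stood at -0.10 and 0.01, with a 95% interval in EBF1wt of -0.32 to 0.13.

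The Pfkfb enzymes make and remove fructose 2,6-bisphosphate, the activator of phosphofructokinase, and rose where they were called. Pfkfb3, the form with the strongest kinase activity, read 10.24 and 10.20 with Empty and between 10.48 and 10.63 on the other arrays. The groups with EBF1 overlapped each other and not Empty, and differed from it by 0.32 ± 0.07 (adjusted p = 0.0108) and 0.35 ± 0.07 (adjusted p = 6.53e-03). The EBF1wt call of Pfkfb3 was lost without Empty replicate 2, and the EBF1-H240A call with the mean over its probes, of which the other two gave 0.27 and 0.39, and 0.82 and 0.51. Pfkfb1 and Pfkfb4 were called in no comparison.

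Pfkfb2 (probe at chr1:132586122-132586181, mm9), the form known from heart, read 4.30 and 4.52 with Empty, 4.56, 4.61 and 4.37 with EBF1wt, and on the EBF1-H240A arrays 5.32, 5.22 and 4.86. On this probe the EBF1wt arrays overlapped Empty, at a difference of 0.10 ± 0.15, while the EBF1-H240A arrays were above both other groups. The other Pfkfb2 probes gave 0.82, -0.20 and 0.36 with EBF1wt, so that difference depends on the probe. Against Empty the EBF1-H240A difference was 0.72 ± 0.15, or 1.65-fold (adjusted p = 8.24e-03), and all 4 probes of the gene were higher there, by 0.44 to 0.78. The call was lost without Empty replicate 1 and with the deposited values, at 0.31 (adjusted p = 0.149). One of its 3 listed starts holds CCCNNGGG in the 250 bases before it (chr1:130715822-130716071, minus strand), and that stretch is shown because this gene separated the EBF1 forms on the chosen probe.
Pfkfb2: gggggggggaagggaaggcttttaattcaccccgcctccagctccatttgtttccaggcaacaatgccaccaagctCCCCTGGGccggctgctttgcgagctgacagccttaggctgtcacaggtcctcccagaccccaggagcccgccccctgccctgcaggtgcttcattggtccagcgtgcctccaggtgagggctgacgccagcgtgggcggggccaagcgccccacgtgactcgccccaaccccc

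In the middle of the pathway, triose phosphate isomerase (Tpi1) fell by 0.27 with EBF1wt (-0.27 ± 0.06, adjusted p = 0.0147) and by 0.24 with EBF1-H240A (-0.24 ± 0.06, adjusted p = 0.0204), calls lost in 4 and 6 of 18 alternatives. A second Tpi1 probe, well above background on all 8 arrays, gave -1.04 and -0.79, so the direction was shared and the size depends on the probe. Aldoa, the main aldolase, was called higher with EBF1-H240A, by 0.25 ± 0.08 (adjusted p = 0.0351), where EBF1wt gave 0.10 ± 0.08, and the EBF1-H240A call was lost in 10 of 18 alternative analyses. The difference between the forms of EBF1 was 0.15 (adjusted p = 0.265), which was not called. Aldoc was not called. Gapdh, Pgk1 and Pgam1, which carry out the next steps, were called in no comparison, and no difference of theirs from Empty exceeded 0.16 in size. The Gapdh probe lists transcribed pseudogenes beside Gapdh, and the Pgk1 probe is placed on chromosome 3 while the gene lies on X, so both are uncertain.

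Pgam2, the muscle form of phosphoglycerate mutase, had the largest difference from Empty among members that fell. Its probe maps to chr11:5701822-5703040 in mm9. Its signals were 7.68 and 7.41 with Empty, 5.67, 5.77 and 5.58 with EBF1wt, and on the EBF1-H240A arrays 6.00, 5.98 and 5.89. The groups did not overlap, and EBF1-H240A lay between the other groups. The differences were -1.87 ± 0.10, or 3.66-fold (adjusted p = 2.57e-05), and -1.58 ± 0.10 (adjusted p = 4.11e-05). Within the 2 slides the EBF1wt difference was -1.91 and -1.78, and for EBF1-H240A it was -1.69 and -1.52. For the same step the general form, Pgam1, stood at -0.10 and 0.04. The erythroid markers Hbb-bt and Epor and 4 or 7 of the 7 proliferation markers fell as well, while Alas2 rose, and their part in the falls of Pgam2, Hk2 and Eno3 was not tested.

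Enolases make phosphoenolpyruvate. Eno3, the muscle form (probe at chr11:70475929-70475988, mm9), read 9.47 and 9.27 with Empty, 8.68, 8.88 and 8.91 with EBF1wt, and on the EBF1-H240A arrays 8.79, 8.85 and 8.72. Both groups with EBF1 were below Empty and overlapped each other, with differences of -0.55 ± 0.10 (adjusted p = 5.16e-03) and -0.59 ± 0.10 (adjusted p = 3.08e-03). Eno1, the general form, fell as well, by 0.36 with EBF1wt (-0.36 ± 0.06, adjusted p = 3.26e-03) and by 0.37 with EBF1-H240A (-0.37 ± 0.06, adjusted p = 2.36e-03). Its probe also lists the paralog Eno1b, so its value may join both genes. Eno2, the neuronal form, was not called, with 95% intervals of -0.32 to 0.39 and -0.65 to 0.07.

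Upstream stretches of Pgam2 (chr11:5803797-5804046, minus strand) and Eno3 (chr11:70656926-70657175, plus strand) are shown for the muscle forms that fell, with CCCNNGGG in capitals. Eno3 holds 1 match and Pgam2 none.
Pgam2: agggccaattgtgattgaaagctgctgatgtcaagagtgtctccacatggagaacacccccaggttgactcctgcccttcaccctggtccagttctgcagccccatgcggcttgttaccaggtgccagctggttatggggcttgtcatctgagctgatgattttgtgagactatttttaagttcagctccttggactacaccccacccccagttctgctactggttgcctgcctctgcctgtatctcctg
Eno3: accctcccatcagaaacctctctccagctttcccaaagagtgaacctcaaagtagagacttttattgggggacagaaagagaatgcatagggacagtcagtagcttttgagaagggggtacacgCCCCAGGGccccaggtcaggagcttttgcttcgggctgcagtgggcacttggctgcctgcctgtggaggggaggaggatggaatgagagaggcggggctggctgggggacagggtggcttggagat

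Pklr read between 1.30 and 2.09 on all arrays, and was not well above background. The other pyruvate kinase, Pkm, is not among the members and read 13.89 to 14.35; it was called in no comparison.

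The lactate dehydrogenase subunits moved in opposite directions. Ldha, the subunit that favours lactate formation, read 16.00 and 15.80 with Empty, 15.56, 15.48 and 15.43 with EBF1wt, and on the EBF1-H240A arrays 15.57, 15.53 and 15.49. It was below both Empty arrays throughout, with differences of -0.41 ± 0.08 (adjusted p = 7.36e-03) and -0.37 ± 0.08 (adjusted p = 9.08e-03), the second of which was lost without Empty replicate 1. Its probe also lists the pseudogene Gm13315. Ldhb (probe at chr6:142438838-142438897, mm9), the subunit typical of heart and of lactate-using cells, read 2.44 and 2.40 with Empty, 3.38, 3.41 and 3.27 with EBF1wt, and on the EBF1-H240A arrays 4.06, 4.02 and 3.96. The 3 groups were fully separate, in the order Empty, EBF1wt, EBF1-H240A. Ldhb was dim, however: neither Empty array and only 2 of the 3 EBF1wt arrays had it well above background.

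Each Empty array was set at the higher of its Ldhb signal and its lowest signal well above background. Against these, Ldhb was at least 1.62-fold higher with EBF1wt and at least 2.56-fold higher with EBF1-H240A. Both bounds hold for this scaling alone, since normexp correction and the deposited values gave smaller differences. The fitted differences were 0.93 ± 0.07 (adjusted p = 1.12e-04) and 1.59 ± 0.07 (adjusted p = 9.12e-06). After normexp correction they were 0.23 (adjusted p = 0.175) and 0.38 (adjusted p = 0.0180), and with the deposited values 0.38 (adjusted p = 0.0711) and 0.60 (adjusted p = 7.97e-03). Ldhb could be tested only because arrays with EBF1, where it is high, had it well above background. Its tests against Empty are therefore no independent support for a rise, and the counts of members called higher include it. The EBF1-H240A call of Ldhb held in all 17 alternatives that could test it, and the EBF1wt call in 15.

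Ldha and Ldhb are also shown with their upstream bases, since the opposite changes fall on subunits of 1 enzyme and Ldha is a textbook target of hypoxia factors. Capitals mark ACGTG or GCGTG on either strand, the cores of hypoxia response elements; CACGTG contains ACGTG on both strands. Among all promoters 19.6% hold ACGTG and 32.4% GCGTG, beside 33.9% and 55.4% of the members' 56. The 56 belong to 36 genes, and close starts of 1 gene share bases, so a site can count more than once. The contrast was not tested. The first start of Ldha (chr7:46845554-46845803, plus strand) has 5 matches, 4 of them in 2 copies of CACGTG, and Ldhb (chr6:142507958-142508207, minus strand) has 1.
Ldha: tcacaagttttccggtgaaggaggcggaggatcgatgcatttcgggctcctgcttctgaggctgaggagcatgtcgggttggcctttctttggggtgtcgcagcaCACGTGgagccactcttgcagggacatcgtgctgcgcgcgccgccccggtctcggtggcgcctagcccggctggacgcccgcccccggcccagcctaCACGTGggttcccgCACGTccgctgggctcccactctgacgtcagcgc
Ldhb: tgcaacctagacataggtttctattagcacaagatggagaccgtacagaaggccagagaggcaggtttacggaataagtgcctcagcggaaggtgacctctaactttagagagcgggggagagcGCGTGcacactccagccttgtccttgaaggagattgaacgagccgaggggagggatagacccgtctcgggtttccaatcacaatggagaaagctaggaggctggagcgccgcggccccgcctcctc

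**Figure D2:**
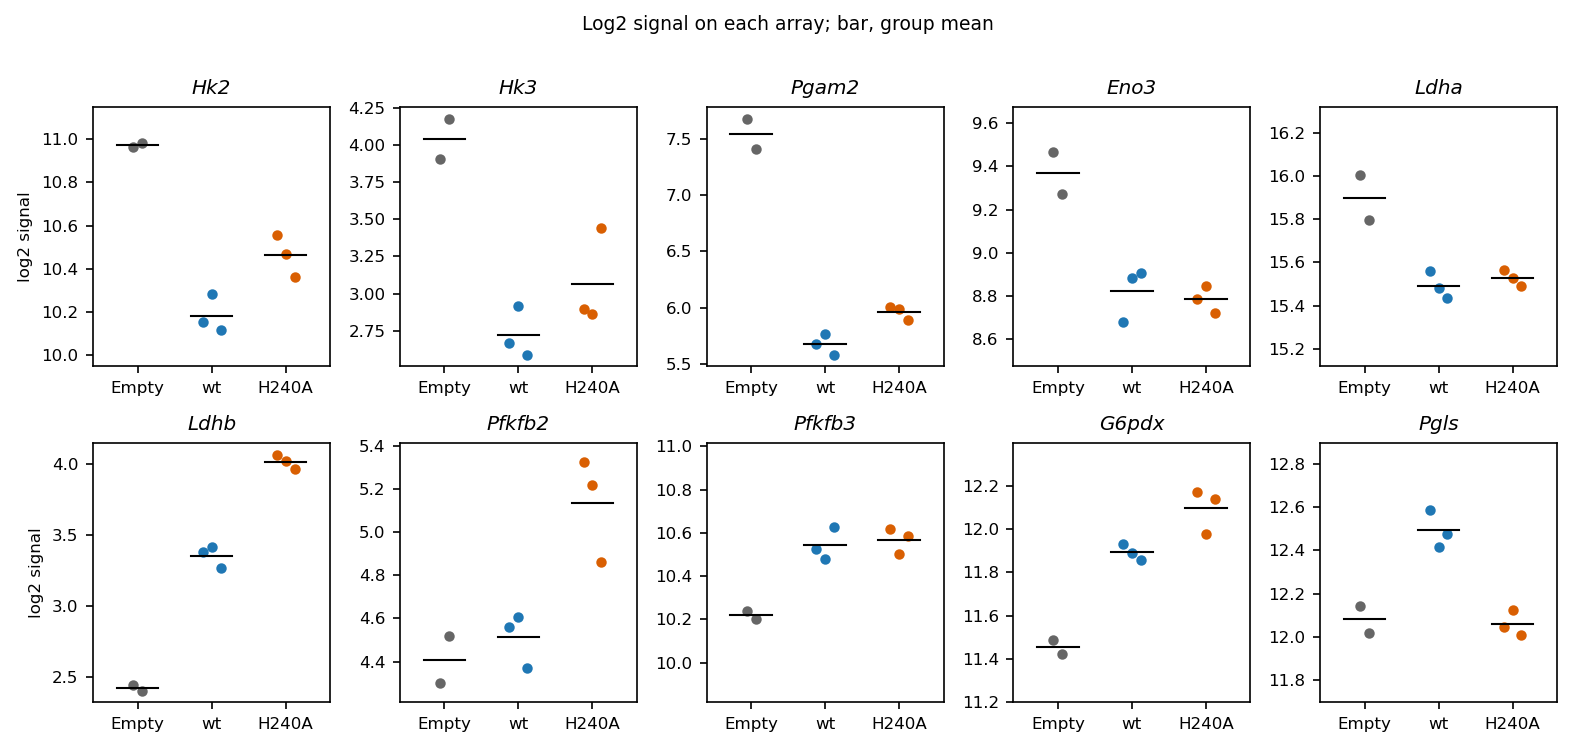
Log2 signal (y axis, own scale for each gene) of 10 members on each of the 2 Empty, 3 EBF1wt and 3 EBF1-H240A arrays, with bars at group means. Pgam2 falls from 7.41 or more with Empty to 6.00 or less, Ldhb rises stepwise, and Pgls is high on the 3 EBF1wt arrays alone.

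Pyruvate dehydrogenase links glycolysis to the citric acid cycle, and its kinases switch it off. Pdha1, its catalytic subunit, was lower by small amounts, -0.23 ± 0.06 (adjusted p = 0.0188) and -0.19 ± 0.06 (adjusted p = 0.0341), calls lost in 7 and 13 of 18 alternatives. Pdk3 was higher with EBF1-H240A, by 0.20 ± 0.06 (adjusted p = 0.0338), a call lost in 12 of 18. Pdk1 and Pdk2 were not called, although Pdk2 stood at 0.32 with EBF1wt with an interval of 0.05 to 0.60 (adjusted p = 0.0641). The chosen Pdk1 probe gave -0.04 and 0.06, and the other -0.37 and -0.22. Pdk4 read 0.46 to 2.34 and was at background on every array.

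In the oxidative pentose phosphate branch 2 of 3 genes rose in each comparison with Empty, G6pdx and Pgls with EBF1wt and G6pdx and Pgd with EBF1-H240A. Of all genes 17.2% and 21.6% were called higher, and 3 genes are too few for a result about the branch. Only the G6pdx calls held in all 18 alternatives outside the single slides. G6pdx, the X-linked glucose 6-phosphate dehydrogenase that sets the rate of the branch (probe at chrX:71654949-71655008, mm9), read 11.49 and 11.42 with Empty, 11.93, 11.89 and 11.86 with EBF1wt, and on the EBF1-H240A arrays 12.17, 11.98 and 12.14. The groups did not overlap, and the order was Empty, EBF1wt, EBF1-H240A. The rise was 0.44 ± 0.08, or 1.36-fold, with EBF1wt (adjusted p = 4.28e-03) and 0.64 ± 0.08, or 1.56-fold, with EBF1-H240A (adjusted p = 6.73e-04). Between the EBF1 forms the difference of 0.20 was not called (adjusted p = 0.132).

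Pgls, 6-phosphogluconolactonase, the next enzyme, followed another pattern. It read 12.14 and 12.02 with Empty, 12.59, 12.42 and 12.48 with EBF1wt, and on the EBF1-H240A arrays 12.05, 12.13 and 12.01. Only the EBF1wt arrays were high, and the EBF1-H240A arrays overlapped Empty. The rise with EBF1wt was 0.41 ± 0.08, or 1.33-fold (adjusted p = 6.72e-03), and with EBF1-H240A the difference was -0.02, with a 95% interval of -0.21 to 0.16. The EBF1wt call was lost after normexp correction, at 0.28 (adjusted p = 0.0702), and with the deposited values, at 0.31 (adjusted p = 0.0808). Pgd, which ends the branch, read 12.09 and 12.05 with Empty, 12.11, 12.19 and 12.17 with EBF1wt, and on the EBF1-H240A arrays 12.47, 12.31 and 12.45, and was called with EBF1-H240A, by 0.34 ± 0.07 (adjusted p = 7.24e-03). That call was lost after normexp correction and with the deposited values, and the dimmer Pgd probe gave 0.11 there.

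In the non-oxidative branch Rpia, Rpe, Tkt and Taldo1 were called in no comparison. Against Empty none of the 4 had an unadjusted p under 0.05 in limma, and 1 did between the EBF1 forms. On the chosen probes their differences from Empty ranged from -0.10 to 0.03 with EBF1wt and from -0.14 to 0.19 with EBF1-H240A. The other Tkt probes gave 0.11 and -0.13, and 0.07 and 0.35, so the direction for Tkt depends on the probe.

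The mutant was then compared with wild-type EBF1 directly, which does not involve the Empty arrays except through the shared spread. Of the 34 members, 2 were higher with EBF1-H240A, Ldhb and Pfkfb2, and 1 was lower, Pgls. Those 3 are 8.82% of the members, beside 6.36% of all genes (3.64% higher, 2.72% lower), and the median difference was 0.09, beside 0.02 over all genes. At 0.5 or more on the log2 scale 2 members (5.88%) were higher and 0 lower, beside 2.18% and 1.55% of all genes. Ldhb was higher by 0.66 ± 0.06, or 1.58-fold (adjusted p = 3.21e-03), in separate groups of arrays. That call was lost after normexp correction, at 0.14 (adjusted p = 0.727), with the deposited values, at 0.21 (adjusted p = 0.497), and with an intensity trend in the fit.

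Pgls was lower, at -0.43 ± 0.07, or 1.35-fold (adjusted p = 0.0185), and every EBF1-H240A array lay below every EBF1wt array. Over the alternatives its difference stayed between -0.47 and -0.39, but the adjusted p ranged from 1.20e-03 to 0.0779, and the call was lost in 6 of 18, among them those without EBF1wt replicate 1, EBF1-H240A replicate 1 or EBF1-H240A replicate 3. Pfkfb2 was higher by 0.62 ± 0.14 (adjusted p = 0.0467) on the chosen probe, a call that held in 3 of 18 alternatives. Of its 4 probes 1 went slightly the other way (-0.04), so the gene's probes disagree.

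Hk2 and Pgd came next, at 0.28 (adjusted p = 0.0762) and 0.25 (adjusted p = 0.0633), and Pgam2 stood at 0.29 (adjusted p = 0.113). None of these was called. Among the 31 uncalled members, the 95% interval lay within 0.5 of 0 for 29, and the exceptions were Eno2, down to -0.65, and Hk3, up to 0.77.

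**Figure D3:**
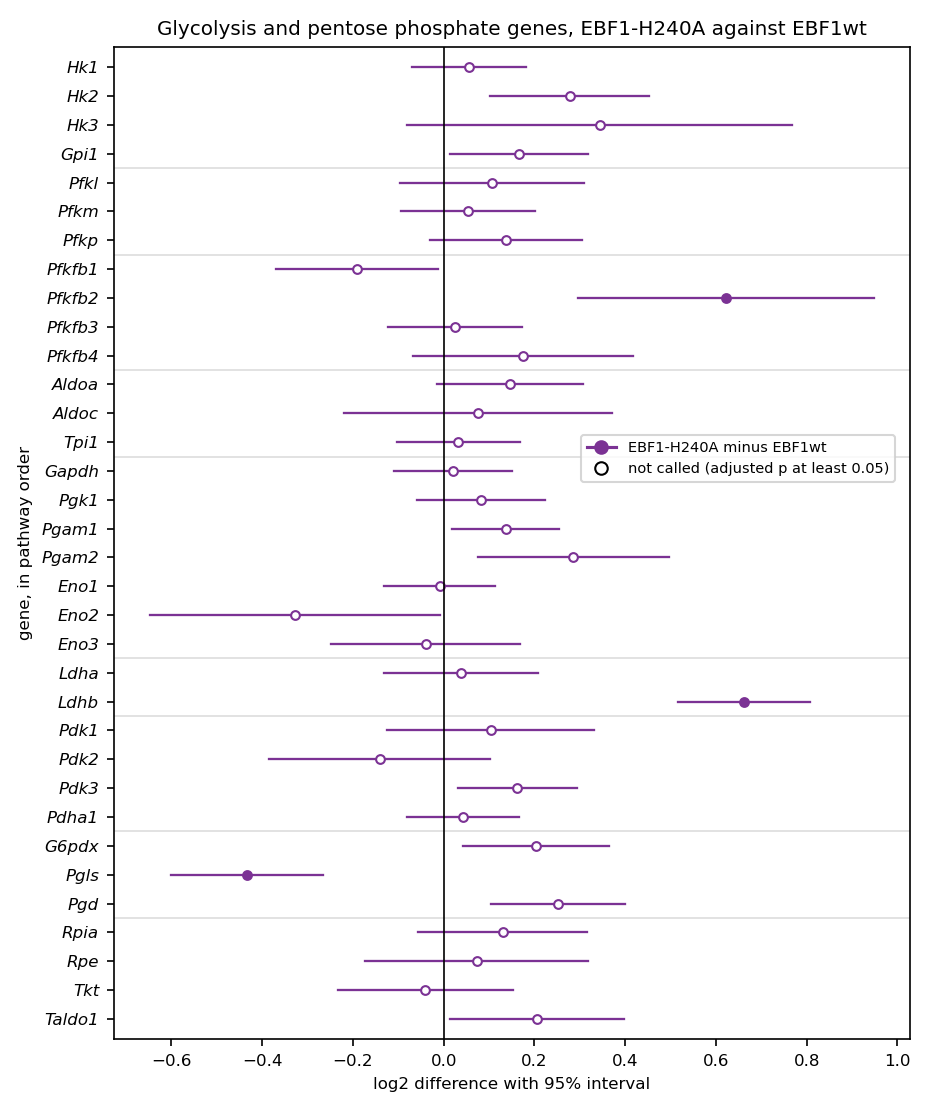
Log2 difference of EBF1-H240A from EBF1wt (x axis, line for the 95% interval) for the 34 tested members, filled where the adjusted p was under 0.05. Ldhb (0.66) and Pfkfb2 (0.62) are filled to the right and Pgls (-0.43) to the left of 0.

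Genes next to these pathways were counted from 4 further lists. Of 30 other genes of glycolysis, gluconeogenesis and the pentose phosphate pathway, 21 were tested, and 5 rose and 8 fell in each comparison with Empty. That is 61.9% of them, beside 38.4% of all genes with EBF1wt and 44.6% with EBF1-H240A. The largest rise was that of Gapdhs, the glyceraldehyde 3-phosphate dehydrogenase of sperm. It read 2.06 and 2.34 with Empty, where 1 of 2 arrays was well above background, then 7.95, 8.13 and 8.19 with EBF1wt, and on the EBF1-H240A arrays 7.03, 7.21 and 7.15. The groups were far apart, with differences of 5.89 ± 0.12 (adjusted p = 8.26e-07) and 4.93 ± 0.12 (adjusted p = 1.06e-06), and EBF1-H240A lay below EBF1wt, at -0.96 ± 0.10 (adjusted p = 5.45e-03). The Gapdhs call between the EBF1 forms was lost with the mean over its probes. Fbp1, a gluconeogenic phosphatase, rose by 1.97 with EBF1wt and 1.22 with EBF1-H240A, above background on 1 of 2 Empty arrays. Its EBF1-H240A call was lost without Empty replicate 1. Pck2, the mitochondrial PEP carboxykinase, rose 2.82-fold and 2.72-fold.

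For pyruvate entry 8 of 9 listed genes were tested, and 1 (12.5%, below the same shares of all genes) fell in each comparison with Empty, Pdp1, the phosphatase that activates pyruvate dehydrogenase, by 0.55 with EBF1wt (-0.55 ± 0.12, adjusted p = 0.0104) and by 0.44 with EBF1-H240A (-0.44 ± 0.12, adjusted p = 0.0224). Pdp1 lost its call in 1 of 18 alternatives with EBF1wt and in 8 of 18 with EBF1-H240A. All 22 citric acid cycle genes were tested, with 2 higher and 5 lower in each comparison, or 31.8%, below the shares of all genes (38.4% and 44.6%). Me2, a malic enzyme, differed by -0.68 and -0.67, and Fh1, fumarase, by -0.41 and -0.60. The EBF1wt call of Fh1 was lost in 9 of 18 alternatives. Between the EBF1 forms no gene of these 2 lists was called by limma, with 1 of 8 and 0 of 22 at an unadjusted p under 0.05.

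Hypoxia response genes outside glycolysis numbered 27, all tested, with 5 higher and 9 lower with EBF1wt (51.9%, beside 38.4% of all genes) and 6 higher and 5 lower with EBF1-H240A (40.7%, beside 44.6%). Epas1, which encodes the factor HIF-2 alpha, read 4.18 and 3.45 with Empty, 7.79, 7.76 and 7.74 with EBF1wt, and on the EBF1-H240A arrays 8.22, 8.53 and 8.14, a rise of 3.95 ± 0.21 (adjusted p = 2.86e-05) and 4.48 ± 0.21 (adjusted p = 1.33e-05). Car12, a carbonic anhydrase, went the other way, at -1.05 and -1.04. Between the EBF1 forms 2 of the 27 were called, Ddit4, an inhibitor of mTORC1, at 0.73 ± 0.11 (adjusted p = 0.0159) and P4ha2, a collagen prolyl hydroxylase subunit, at 0.44 ± 0.07 (adjusted p = 0.0193), both named after their values were seen. They are 7.41% of the list, near the 6.36% of all genes, and in that comparison 7 of the 27 had an unadjusted p under 0.05. The Ddit4 call was lost in 5 of 18 alternatives and the P4ha2 call in 10 of 18.

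**Figure D4:**
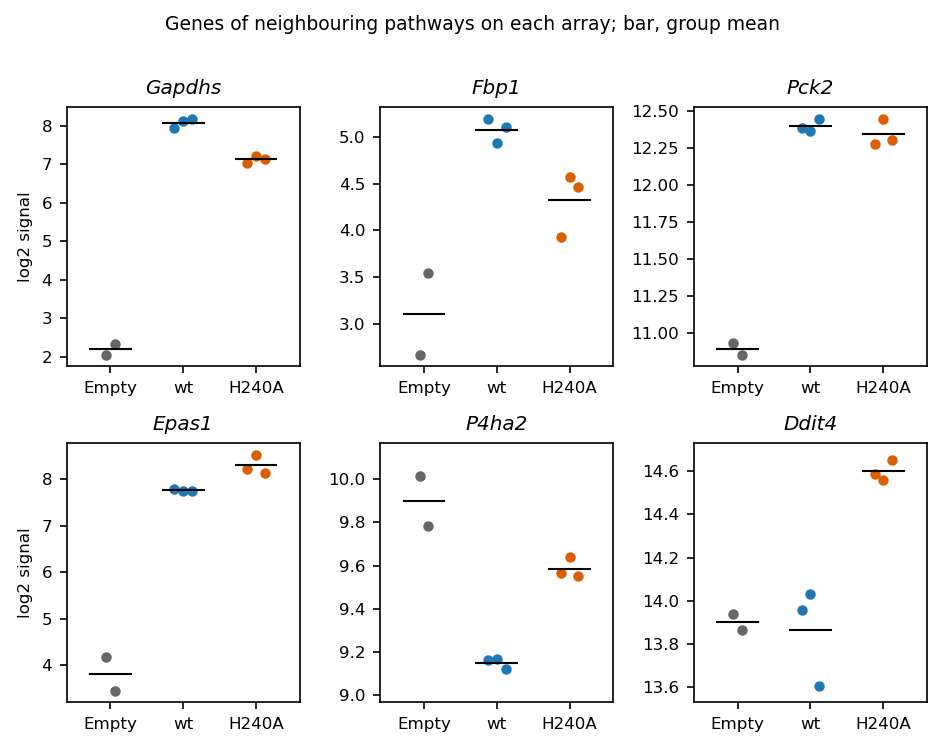
Log2 signal (y axis, own scale for each gene) of 6 genes of neighbouring pathways on each of the 8 arrays, with bars at group means. Gapdhs and Epas1 rise from under 4.2 on both Empty arrays to above 7 on every other array, and Ddit4 is high on the 3 EBF1-H240A arrays alone.

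The arrays came from 2 slides that each held all 3 groups. Within each slide all 14, 17 and 3 members called in the 3 comparisons kept their direction. That was fixed in advance, since the groups compared did not overlap for any called member. Few were called within the 4 arrays of a slide. With slide as a block the differences of Hk2 were -0.77 (adjusted p = 8.82e-04) and -0.53 (adjusted p = 2.73e-03), those of G6pdx 0.44 (adjusted p = 0.0104) and 0.64 (adjusted p = 2.14e-03), and that of Pgls between the EBF1 forms -0.44 (adjusted p = 0.0443). Among the members called against Empty, Hk2, Pfkm, Pgam2, Eno1, Eno3 and G6pdx kept their calls in both comparisons under all 18 alternatives outside the single slides.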

How the data were processed

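Single-colour arrays of 8 samples in 3 groups were analysed, with groups and replicate numbers from the labels. The submitters' processing notes name Agilent Feature Extraction 10.5.1.1. Its processed signal, per the file headers, is a linear intensity from which background and a spatial trend were removed, replaced by a surrogate for spots near background. Mean spot and local background intensities stand beside it. The same software's 0 or 1 flags mark outliers and signals well above background. The deposited value table holds log2 values, a scale inferred from their range and their r of 0.9715 to 0.9793 with the scanner values of the same array. Its column medians were 4.903 to 4.929, its centring is unknown, and the authors' method for it was not given in the sources used here. It served as an alternative only.

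Processed intensities of 43379 spots were scaled to a common 75th percentile, floored at 1 and taken to log2. Outlier spots were dropped, and spots of a probe averaged (41174 probes). Probes well above background on at least 2 of 8 arrays were kept (25008), less 24 with a missing value, and the brightest kept probe stood for a gene (16310 genes). Names came from a RefSeq table of GRCm38.p6, through the accession of 27816 probes, the symbol of 5503 and a synonym of 380. Groups were compared with limma 3.58.1 in R 4.3.3, all arrays in 1 fit without covariates (5 residual and 1.8 prior degrees of freedom), and p-values were adjusted by Benjamini-Hochberg over all genes. The fit was tested on simulated data. A gene dim on all arrays of a group has a bound, the mean of the brighter group over the higher of its own signal and the lowest signal well above background, per array. With 2 or 3 arrays a group, their number limits the precision. Members and lists were chosen with earlier results of these data known. Array values are printed for members called with a difference of at least 0.5, called between the EBF1 forms or dim on some array, and for other members where a sentence turns on them. From each other list at most 2 called genes per comparison with Empty are named, besides those marked and Pkm. Alternatives were quantile scaling, normexp background correction (offset 50), the value table, other probe filters and summaries, slide or replicate number as a block, single slides, other limma settings and leaving out each array. The value of 1 marker gene is not reported here. Whether replicate numbers pair the samples is not known: of 7 same-numbered pairs, 2 had deviations correlated over 0.1. This cannot decide it, since deviations from a mean of 2 or 3 arrays are tied within a group.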

Additional observations from a re-analysis of the deposited data

How the results depend on the processing

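No called difference of a member reversed under any alternative run. For single slides and left-out arrays that was fixed in advance, since the groups compared did not overlap for any called member. Against Empty, the members called higher with EBF1wt (4 in the analysis reported) numbered 2 both after normexp correction and with the deposited values, and 0 within either slide. Those called lower (10) numbered 0 within slide 1 and 1 within slide 2. With EBF1-H240A, the 7 called higher became 3 with the deposited values, and 1 and 0 within slides 1 and 2, and the 10 called lower became 2 and 0 there. A slide holds 4 arrays, of which 1 is an Empty array, so the counts within slides are no result about the members. Between the EBF1 forms, the 2 called higher became 0 after normexp correction, in the value table and within either slide. They became 1 with quantile scaling, no filter on dim probes, the mean over probes, slide as a block, the replicate block or only the groups compared. Over all genes 0.688% to 3.62% were higher in those settings, 2.4% after normexp correction and 2.13% in the value table. The 1 called lower became 0 in the value table, without a filter, within either slide and with the replicate block. Of all genes 1.86%, 0.549%, 0% and 0.932% were called lower there. With the deposited values 3 of the 34 members had an unadjusted p under 0.05 in limma in that comparison, beside 2558 of all 16310 genes. Leaving out 1 array at a time gave 3 to 5 higher and 8 to 10 lower with EBF1wt, beside 12.6% to 16.6% and 12.2% to 20.3% of all genes. With EBF1-H240A it gave 5 to 7 higher and 6 to 10 lower, beside 16.1% to 21.8% and 15.8% to 23.4%. Between the forms it gave 1 to 2 higher and 0 to 1 lower, beside 1.26% to 2.94% and 0.981% to 2.21%. The lowest count with EBF1-H240A, 6, was that without the first Empty array, where the share of all genes called lower was also lowest, at 15.8%. Same-numbered arrays had deviations correlated at r of -0.331 to 0.192. With replicate number as a block the calls were 4 higher and 8 lower with EBF1wt, beside 13.8% and 15.7% of all genes. With EBF1-H240A they were 6 and 7, beside 17.7% and 18.6%, and between the forms 1 and 0, beside 1.28% and 0.932%. The cause of these losses was not tested. Hk3 and Ldhb lay near background, and Pklr and Pdk4 below the level that could be measured.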
